A study of Homo sapiens with 45 samples.

Results

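The comparison described here is the response to azacytidine (azaC) in cells that lack the kinase GCN2, with 2 knockout lines pooled. Its members were chosen by label: the 6 azaC libraries of the GCN2 KO and RNF25 GCN2 DKO lines, set against the 6 untreated libraries of the same lines, with the line as a block. They are 12 of the 45 libraries of the series. All were made from polyA RNA of HAP1, a near-haploid human cell line derived from KBM-7, and each value is a read count per gene. The groups were GCN2 KO cells given 5 uM azaC for 4 h, RNF25 GCN2 DKO (double knockout, DKO) cells given the same, untreated GCN2 KO cells and untreated DKO cells, with 3 libraries in each. Both lines therefore share the loss of GCN2, and DKO cells also carry the loss of RNF25. For comparison, 12 libraries of lines that keep GCN2 were used: RNF25 KO cells with and without azaC, and AAVS1 cells with and without azaC, AAVS1 being a site often edited as a neutral control. The labels do not say how many clones stand behind a line. The series title names RNF25, mRNA damage by azaC and the integrated stress response, so the question here is what azaC still changed when GCN2 was absent.

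GCN2, encoded by EIF2AK4, is one of the kinases that phosphorylate the translation initiation factor eIF2. It is activated by uncharged tRNA and by stalled or collided ribosomes, and the ensuing drop in initiation favours translation of the transcription factor ATF4. ATF4 with its partners then raises transcripts for amino acid transport and synthesis, redox control and feedback, a programme called the integrated stress response (ISR). RNF25 is a ubiquitin ligase that acts at stalled ribosomes. AzaC is a cytidine analogue that cells phosphorylate and build into RNA and DNA.

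The 12 libraries held 1135498 to 2006564 counts, and their median total was 1473991. Tested genes had a median of 33 to 65 counts, depending on the library. AzaC and untreated libraries had similar totals, with means of 1509000 and 1504000 counts (exact permutation test within lines, two-sided, p = 0.975, smallest possible p 0.005). Mitochondrial transcripts took 7.70% of counts in azaC libraries and 7.75% in untreated ones. Ribosomal protein transcripts took 15.5% in azaC libraries and 15.9% in untreated ones, and neither difference passed the same exact permutation test (p = 0.945 and p = 0.40). The leading principal component, with 22.5% of the variance, separated the 2 lines, and the next, with 14.8%, set replicate 2 of each group apart from replicates 1 and 3. GCN2 KO azaC replicate 2 stood apart on the component with 9.84% of the variance, at -31.6, opposite untreated GCN2 KO replicate 2 at 31.4. The ISR list, its medians by role and the ISR genes in which it was highest are given with and without it. Of 14 haematopoietic markers, 9, including PTPRC, CD33 and SPI1, had no count in any of the 12 libraries, and TAL1 alone passed 10 CPM, a count scaled to library size. Among 8 epithelial markers KRT18 alone passed 10 CPM, and among 8 fibroblast markers COL1A1 alone did. The neural and progenitor genes MAP2, SOX2 and NES passed 10 CPM. HAP1 cells are adherent descendants of a leukaemia line, and the remaining haematopoietic markers other than TAL1 stayed at or under 10 CPM here. The summed haematopoietic markers ran from 15.1 to 39.1 CPM in azaC libraries and from 15.2 to 28.2 CPM in untreated ones.

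The edited genes gave only a partial check of the labels. EIF2AK4 was read at 28.2, 19.8 and 18.2 CPM in azaC-treated GCN2 KO cells and at 24.6, 20.9 and 20.3 CPM in untreated GCN2 KO cells. In DKO cells it was read at 35.3, 47.5 and 22.3 CPM with azaC and at 39.0, 43.5 and 36.0 CPM untreated. Lines with GCN2 gave 39.1 to 64.7 CPM in RNF25 KO and 42.1 to 57.0 CPM in AAVS1 cells. GCN2 KO libraries thus lay below all libraries with GCN2, whereas DKO libraries overlapped them. An edit need not remove a transcript, so this level does not test whether the protein is absent. RNF25 had 0 to 3 counts in each of the 12 libraries, and up to 3.53 CPM in AAVS1 cells, which is too few to check any line.

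Across 9939 tested genes no gene passed an adjusted p under 0.05 for azaC against untreated cells in the pooled lines (edgeR quasi-likelihood test, 0% called). At an unadjusted p under 0.05 there were 416 genes, 4.19% of those tested, of which 244 were higher with azaC (2.45%) and 172 lower (1.73%). DESeq2 also called 0 genes, with 409 at an unadjusted p under 0.05, and limma-voom called 0, with 424. The same held for each line: 0 genes in GCN2 KO, with 390 (3.92%) at an unadjusted p under 0.05, and 0 genes in DKO, with 272 (2.74%). With a block for the replicate number the pooled edgeR fit also called 0 genes, with 650 at an unadjusted p under 0.05. Blocked fits chosen after seeing the data called HJURP with all 45 libraries, and HJURP and HSPA8 with DESeq2. The size of an increase that could be missed is bounded gene by gene. For 9088 genes (91.4%) the upper end of the 95% interval of the pooled change lay below a doubling. Lower ends were not counted, so this share does not bound decreases. In 26 genes (0.262%) every azaC library lay above every untreated library of its own line in both lines, and in 22 genes (0.221%) every azaC library lay below. Each such order is given by only the true labels among the 400 relabellings within lines. Shares of this size can therefore arise without an azaC effect. Fewer expressing cells and less RNA per cell cannot be told apart in bulk libraries such as these.

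The ISR list held 38 genes chosen for their known place in the programme, and 29 were tested. With 0 of 29 past the threshold, 19 had a positive change and 10 a negative one, and the median log2 change was 0.086, against -0.0066 over all tested genes. Only 1 of the 29, ATF3, reached an unadjusted p under 0.05. The interval ended below a doubling for 25 of the 29 (86.2%), close to the 91.4% of all genes. By role, the median was 0.044 for 7 transcription factors, 0.22 for 10 feedback and signalling genes, -0.054 for 9 genes of metabolism and redox, and 0.17 for 3 secreted or surface proteins. Without GCN2 KO azaC replicate 2 these medians were -0.067, 0.086 (11 genes tested), -0.088 and 0.0098. In the lines with GCN2 the same list, with 31 genes tested, had a median log2 change of 1.02 and 16 genes higher at an adjusted p under 0.05.

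Among the transcription factors, ATF4 itself was read at 681, 432 and 646 CPM in azaC-treated GCN2 KO cells and at 629, 527 and 563 CPM in untreated ones. In DKO cells it was read at 439, 419 and 491 CPM with azaC and at 445, 345 and 457 CPM untreated. The groups overlapped in both lines, and the pooled log2 change was 0.074 (95% interval -0.16 to 0.31). DDIT3, which encodes the pro-apoptotic factor CHOP, had 28.2, 17.1 and 15.7 CPM in azaC-treated GCN2 KO cells, against 26.0, 13.6 and 16.4 CPM in untreated ones. Its DKO values were 13.2, 24.5 and 5.57 CPM with azaC and 16.4, 13.7 and 13.9 CPM untreated. The pooled log2 change of DDIT3 was 0.044 (95% interval -0.53 to 0.62), with overlap in both lines. On the annotation used, 31.6% of the exon length of DDIT3 lies under genes of the opposite strand, so part of its counts could come from them. CEBPB, a partner of ATF4, had a pooled log2 change of 0.086, and -0.13 without GCN2 KO azaC replicate 2, and also overlapped in both lines.

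ATF3, a stress-induced repressor that answers to ATF4 and to other signals, was the ISR gene with the smallest p. It was read at 19.3, 36.3 and 13.2 CPM in azaC-treated GCN2 KO cells and at 11.6, 22.7 and 14.1 CPM in untreated ones, and these ranges overlapped. In DKO cells it was read at 14.7, 27.3 and 15.3 CPM with azaC and at 6.15, 12.3 and 6.31 CPM untreated, with every azaC library above. The pooled log2 difference was 0.83 ± 0.29 (SE, n = 6 libraries each), with an unadjusted p of 0.00846 and an adjusted p of 0.997 in edgeR. Without GCN2 KO azaC replicate 2 it was 0.65.

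Of the feedback genes, SESN2, on chromosome 1 (GRCh38, 28259527 to 28282491), encodes an inhibitor of mTORC1 signalling. Its values were 63.3, 94.2 and 56.0 CPM in azaC-treated GCN2 KO cells, against 73.7, 71.8 and 59.4 CPM in untreated ones. In DKO cells they were 60.3, 59.4 and 73.8 CPM with azaC, against 49.2, 64.2 and 60.0 CPM untreated. The pooled log2 change of SESN2 was 0.11 (95% interval -0.19 to 0.41). DDIT4, another mTORC1 inhibitor, was read at 14.5, 31.4 and 6.29 CPM in azaC-treated GCN2 KO cells and at 13.0, 13.6 and 4.69 CPM in untreated ones. In DKO cells DDIT4 was read at 12.5, 14.7 and 13.2 CPM with azaC and at 22.6, 17.95 and 15.2 CPM untreated, with every azaC library below. Its log2 change was 0.76 in GCN2 KO and -0.46 in DKO, and the difference between the lines did not pass (unadjusted p = 0.069). Of the exon length of DDIT4, 41.2% lies under a gene of the opposite strand. TRIB3, an ATF4-induced inhibitor of ATF4, and PPP1R15A, the stress-induced subunit that directs eIF2 dephosphorylation, had pooled log2 changes of 0.22 and 0.39, with intervals that included 0 and ranges that overlapped in both lines.

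CHAC1, which encodes an enzyme that degrades glutathione, had the lowest counts of the ISR genes whose library values are given here. It was read at 2.75, 22.0 and 0 CPM in azaC-treated GCN2 KO cells and at 5.06, 5.45 and 0.782 CPM in untreated ones. DKO cells gave 1.47, 6.99 and 2.09 CPM with azaC and 2.74, 9.45 and 2.53 CPM untreated. The pooled log2 change was 0.35 (95% interval -0.98 to 1.68), which includes a doubling of CHAC1. STC2, which encodes a secreted glycoprotein, was read at 63.3, 122 and 57.9 CPM in azaC-treated GCN2 KO cells and at 88.8, 53.6 and 46.1 CPM in untreated ones. In DKO cells STC2 was read at 46.3, 68.5 and 64.0 CPM with azaC and at 61.5, 69.4 and 39.1 CPM untreated, and its pooled log2 change was 0.22 (95% interval -0.18 to 0.62).

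GCN2 KO azaC replicate 2 gave the highest of the 6 GCN2 KO values for CHAC1, STC2, SESN2, DDIT4 and ATF3. Over the tested ISR genes it averaged 0.40 log2 (CPM + 1) units above the untreated mean of its line, while the other azaC replicates of that line averaged 0.074 and -0.028. In DKO cells the azaC replicates averaged -0.095, 0.13 and 0.0099. Without that library the pooled log2 change was -0.82 for CHAC1, 0.0098 for STC2, 0.00023 for SESN2 and -0.28 for DDIT4, and the list median was 0.00023. Over the 12 fits without 1 library that median ran from 0.00023 to 0.116. On the same scale the azaC libraries averaged 1.51 to 1.60 in RNF25 KO cells and 0.98 to 1.01 in AAVS1 cells.

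**Figure D1:**
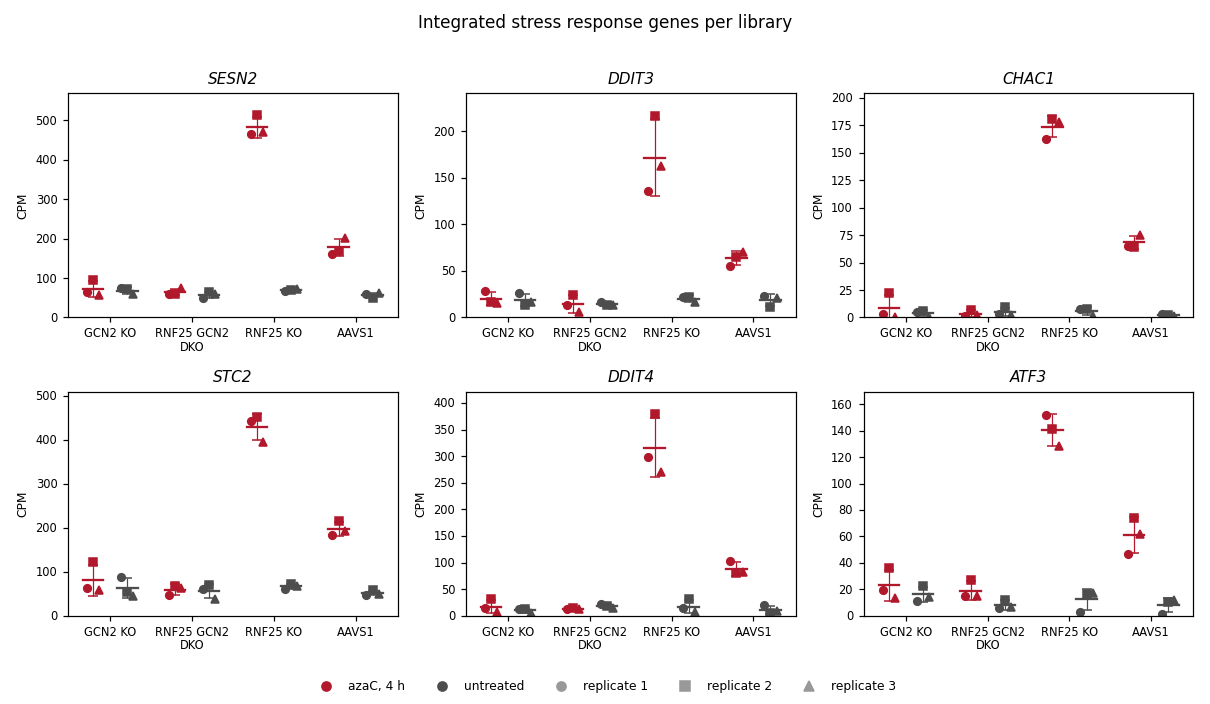
Levels of 6 ISR genes in CPM (vertical axes, from 0) in each library, by line, with azaC libraries (red) left of untreated ones (grey). Symbols mark the replicate number, horizontal lines the mean and bars the SD over 3 libraries. In GCN2 KO and DKO cells azaC and untreated libraries mostly overlap, GCN2 KO azaC replicate 2 (square) is the highest GCN2 KO library for SESN2, CHAC1, STC2, DDIT4 and ATF3, and RNF25 KO and AAVS1 cells show azaC libraries well above untreated ones.

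Genes that respond with GCN2 present give a second view. In the mean of RNF25 KO and AAVS1, 39 genes were higher with azaC (0.372% of 10477 tested) and 4 were lower (0.0382%). Of the 39, 38 were tested in the pooled lines without GCN2, where 28 had a positive change and 10 a negative one, with 48.7% positive over all tested genes. The median log2 change of the set was 0.18 without GCN2 and 1.24 with it, and these genes were chosen on their change with GCN2. An unadjusted p under 0.05 in the same direction was found without GCN2 for 9 of the 38, where 2.45% of all tested genes were higher at that threshold. They include ATF3, JUN, GADD45A, the amino acid transporter subunit SLC3A2 and the snoRNA host gene SNHG7. Of the 4 genes that were lower with GCN2, HSPA8 and the mitochondrial tRNA gene MT-TP reached an unadjusted p under 0.05 in the same direction without it, CEBPD had a log2 change of 0.14, and HSPA1A one of -0.52.

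**Figure D2:**
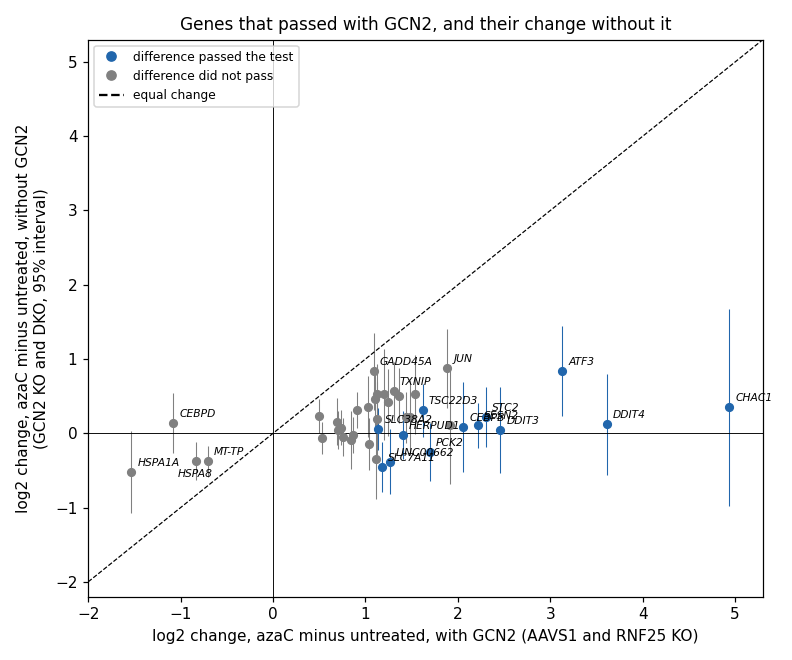
Log2 change with azaC of the genes that passed in the lines with GCN2 (horizontal axis, mean of RNF25 KO and AAVS1) against their pooled change in the lines without GCN2 (vertical axis, bars are 95% intervals). The dashed line marks equal change. Blue genes passed the test of the difference. CHAC1, DDIT4 and ATF3 lie farthest right, with changes of 0.35, 0.12 and 0.83 without GCN2.

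The difference itself was tested in the 24 libraries of the 4 lines, as the azaC change without GCN2 minus that with GCN2. It passed for 14 genes (0.134% of 10477), all of them lower without GCN2 (edgeR quasi-likelihood test). At an unadjusted p under 0.05 there were 422 genes (4.03%), of which 270 (2.58%) were lower. The largest in size were CHAC1 at -4.61 ± 0.81 (SE, adjusted p = 0.0048), DDIT4 at -3.45 ± 0.46 (adjusted p = 0.00012) and the noncoding transcript AC016831.5 at -3.03 ± 0.49 (adjusted p = 0.00166). DDIT3 differed by -2.42 ± 0.35 (SE, adjusted p = 0.00027). The smallest p belonged to SESN2, at -2.11 ± 0.19 (adjusted p = 6.14e-08). AC016831.5 was tested in the 24 libraries only: with 3 to 11 counts in each library without GCN2 it missed the filter on low counts in the pooled lines, and it passed in the larger set, where RNF25 KO cells averaged 34.1 CPM with azaC and 6.39 CPM untreated. STC2, ATF3 and CEBPB followed the same direction, at -2.09, -2.28 and -1.99. PCK2, the mitochondrial enzyme that makes phosphoenolpyruvate, differed by -1.94. HERPUD1, a component of ER-associated degradation, differed by -1.43. The amino acid transporter genes SLC7A11 (cystine) and SLC38A2 (neutral amino acids) differed by -1.64 and -1.08. TSC22D3, a transcriptional regulator, differed by -1.31, and the noncoding transcript LINC00662 by -1.64. Of the 31 ISR genes tested in this comparison, 9 passed, all lower without GCN2.

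Levels show where these differences lie. SESN2 averaged 71.2 ± 20.3 CPM with azaC and 68.3 ± 7.74 CPM untreated in GCN2 KO cells (SD, n = 3 each). It averaged 64.5 ± 8.04 CPM with azaC and 57.8 ± 7.74 CPM untreated in DKO cells. In RNF25 KO cells it averaged 483 ± 26.5 CPM with azaC and 69.9 ± 1.68 CPM untreated, and in AAVS1 cells 177 ± 21.2 CPM with azaC and 56.8 ± 6.01 CPM untreated. The untreated means of the 4 lines lay between 56.8 and 69.9 CPM. CHAC1 averaged 8.26 ± 12.002 CPM with azaC and 3.76 ± 2.59 CPM untreated in GCN2 KO cells, against 68.4 ± 5.90 CPM with azaC and 2.24 ± 1.10 CPM untreated in AAVS1 cells (SD, n = 3 each). HERPUD1 averaged 52.2 ± 4.67 CPM with azaC and 60.6 ± 5.14 CPM untreated in GCN2 KO cells, where every azaC library lay below. In AAVS1 cells HERPUD1 averaged 104 ± 2.91 CPM with azaC and 49.5 ± 13.6 CPM untreated.

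The contrast averages 2 line pairs. GCN2 KO against AAVS1 alone called 1 gene, SESN2 (0.00954%), at -1.58 ± 0.27 (SE, adjusted p = 0.022), and DKO against RNF25 KO alone called 9 (0.0859%). All 14 genes were lower in both pairs, 13 of them at an unadjusted p under 0.05 in the pair with AAVS1. For SESN2 the DKO against RNF25 KO difference was -2.63 ± 0.27, and for CHAC1 it was -5.48 ± 1.05 with an adjusted p of 0.016. For ATF3 the difference was -2.28 in both pairs, and for AC016831.5 it was -2.55 for DKO against RNF25 KO and -3.50 for GCN2 KO against AAVS1. The test of the difference between the pairs passed for 0 of the 14 genes and 0 of all tested genes, with 5 of the 14 and 227 of all tested genes (2.17%) at an unadjusted p under 0.05 in edgeR. All p-values of the pairs come from the same fit and were computed after the pooled difference had been seen. The call of TSC22D3 was lost in 18 of the 24 fits that left out 1 library, and those of CHAC1, ATF3 and CEBPB in 3 each.

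The promoters of 12 of the 14 genes were found in the RefSeq table for GRCh38.p14, and 3 hold the letters TGATGNAA, the core of the C/EBP-ATF response element that ATF4 dimers bind. They are shown because CHAC1, ATF3 and HERPUD1 are among the genes that passed the difference between lines without and with GCN2. The letters were searched in the 250 bases before the RefSeq start, and each sequence is printed 5′ to 3′ on the plus strand, which is the gene's own, with capitals marking the matched letters. GENCODE annotates UTR in part of each searched window, and the transcript it belongs to was not recorded. The ATF3 and HERPUD1 sequences, chr1:212565157-212565333 and chr16:56931892-56932047, therefore run from the start of the searched window up to the first annotated UTR. For CHAC1, whose match lies in an annotated UTR, the 30 bases around the match are given, chr15:40953251-40953280.
CHAC1: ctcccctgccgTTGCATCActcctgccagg
ATF3: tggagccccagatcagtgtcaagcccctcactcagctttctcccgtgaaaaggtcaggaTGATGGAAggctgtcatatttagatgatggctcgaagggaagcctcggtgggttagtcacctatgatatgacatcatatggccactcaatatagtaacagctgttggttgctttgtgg
HERPUD1: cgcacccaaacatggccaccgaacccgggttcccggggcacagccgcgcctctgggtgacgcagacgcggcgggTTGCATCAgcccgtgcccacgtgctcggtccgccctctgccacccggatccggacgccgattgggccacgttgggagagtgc
The letters TTGCATCA in CHAC1 and HERPUD1 are the match on the opposite strand, and TGATGGAA in ATF3 is the match on the plus strand. The match begins 209 bases before the start in CHAC1, 191 in ATF3 and 176 in HERPUD1. Over all 35116 promoters of that table, 1104 (3.14%) hold the letters on either strand in the same window. The match is a description of these letters only. CHAC1 and HERPUD1 hold the same 8 letters, while their pooled log2 changes without GCN2 were 0.35 and -0.023.

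The gene with the smallest p in the pooled response was HJURP, the chaperone that deposits the centromeric histone CENP-A. It was read at 162, 146 and 148 CPM in azaC-treated GCN2 KO cells and at 98.2, 127 and 124 CPM in untreated ones. DKO cells gave 202, 146 and 161 CPM with azaC and 107, 108 and 95.3 CPM untreated. Every azaC library lay above every untreated one in both lines, and the pooled log2 change was 0.55 ± 0.12 (SE, n = 6 each). In edgeR without a replicate block HJURP had an unadjusted p of 9.5e-05 and an adjusted p of 0.946. Of 23 alternative fits HJURP passed in 2, both with a replicate block and chosen after seeing the data. CENPA, which encodes that histone, was also among the 12 with the smallest p, at 0.55 ± 0.16, with no overlap in either line. HJURP lies on chromosome 2 (GRCh38, 233833416 to 233854566) and CENPA on the same chromosome (26764289 to 26801067). With GCN2 present their log2 changes were 0.42 and 0.53, and the difference passed for neither. Of the G2/M list 18 genes were tested, with 9 positive, 9 negative and a median of -0.019.

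Other genes among the 12 with the smallest p and a positive change were ENSG00000287001 (0.83), C15orf39 (0.90), ZNF473 (0.97), CDCA4 (0.52), SPTY2D1 (0.52), ZNF296 (0.87) and TWNK, the mitochondrial DNA helicase (0.64). FAM122C had the largest log2 change of those 12, 1.63, with 5.51, 5.51 and 7.55 CPM in azaC-treated GCN2 KO cells, against 0, 0.908 and 2.35 CPM in untreated ones. These are low counts, and its DKO values were 5.88, 10.5 and 7.65 CPM with azaC and 4.79, 3.78 and 1.89 CPM untreated. None of these genes passed the adjusted threshold.

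Immediate early genes, whose transcription follows stress and growth signals without new protein synthesis, had the highest median among the lists with more than 1 tested gene. Of 26 listed, 11 were tested, 9 were positive, and the median log2 change was 0.49. JUN, IER5, KLF6 and JUND were higher at an unadjusted p under 0.05, as were 2.45% of all tested genes, and none of the list passed after adjustment. JUN, a subunit of the factor AP-1, was read at 49.6, 54.5 and 28.3 CPM in azaC-treated GCN2 KO cells and at 21.7, 28.2 and 35.2 CPM in untreated ones. In DKO cells it was read at 64.0, 43.3 and 16.7 CPM with azaC and at 10.9, 17.95 and 27.8 CPM untreated. Replicate 3 was the lowest azaC library and the highest untreated library in both lines, so the groups overlapped despite a pooled log2 change of 0.88 ± 0.26 (SE, unadjusted p = 0.0021). The list median was 0.26 without untreated GCN2 KO replicate 1, 0.30 in GCN2 KO alone and 0.29 in DKO alone. For JUN the change without minus that with GCN2 was -1.004 (unadjusted p = 0.018, adjusted p = 0.991, edgeR). By line, the log2 change of JUN was 0.65 in GCN2 KO and 1.12 in DKO, against 1.21 in AAVS1 and 2.56 in RNF25 KO. Over the 14 members tested in the 24 libraries, the list median was 0.45 with GCN2 and 0.36 without it. This set adds DUSP5, EGR1 and FOSL2, which were too low to test in the pooled lines and passed the filter only in the larger set. These medians are therefore not over the same genes as the 0.49, and their order is not read as a difference between lines. No member passed the test of the difference.

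Of 20 listed targets of p53, 14 were tested and 13 were positive, where 48.7% of all tested genes were positive. Others, among them CDKN1A with 0 to 7 counts in each library, were too low to test. The list had a median log2 change of 0.21 and none past the adjusted threshold. The median was 0.10 without DKO azaC replicate 3 and 0.34 without untreated DKO replicate 3. GADD45A, a growth arrest gene that p53 and ATF4 both induce, was read at 17.9, 17.1 and 17.6 CPM in azaC-treated GCN2 KO cells, against 10.1, 6.36 and 10.2 CPM in untreated ones. Its DKO values were 27.2, 13.3 and 33.4 CPM with azaC and 15.0, 14.2 and 15.2 CPM untreated. The azaC libraries lay above in GCN2 KO and overlapped in DKO, with a pooled log2 change of 0.83 ± 0.25 (SE, unadjusted p = 0.0026). PPM1D, a phosphatase that dampens p53 signalling, followed at 0.49. MDM2 had a change of 0.11, and BAX, the negative member, had one of -0.27. Over the 15 members tested in the 24 libraries, the list median was 0.33 with GCN2 and 0.20 without it. This set adds FAS, which was too low to test in the pooled lines, so the 0.33 and the 0.21 are not over the same genes.

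The lists of protein folding had negative medians. Heat shock genes were negative for 13 of 15, with a median of -0.13 (-0.32 with GCN2, the mean of AAVS1 and RNF25 KO). ER chaperone and ERAD genes were negative for 15 of 19, with a median of -0.080. Over the heat shock list, azaC libraries averaged -0.12, -0.18 and -0.53 log2 (CPM + 1) units from the untreated mean in AAVS1. They averaged -0.58, -0.45 and -0.77 in RNF25 KO, -0.14, -0.17 and -0.40 in GCN2 KO, and 0.094, 0.040 and -0.25 in DKO. AAVS1 and GCN2 KO thus overlapped. The heat shock median was -0.28 in GCN2 KO alone, -0.068 in DKO alone and -0.20 without untreated GCN2 KO replicate 3. HSPA8, the constitutive HSP70, was read at 1358, 1253 and 1160 CPM in azaC-treated GCN2 KO cells, against 1943, 1790 and 1371 CPM in untreated ones, with no overlap. In DKO cells it was read at 1255, 1230 and 874 CPM with azaC and at 1786, 1379 and 1022 CPM untreated, with overlap. The pooled log2 change of HSPA8 was -0.38 ± 0.12 (SE, unadjusted p = 0.0050). HSPA1A, the inducible HSP70, whose reads may be shared with its near-identical copy HSPA1B, had a pooled change of -0.52 with an interval that included 0. Its replicate 3 was the lowest library of each of the 4 groups, with 155 CPM with azaC and 188 CPM untreated in GCN2 KO, and 102 CPM with azaC and 112 CPM untreated in DKO. Over the heat shock list untreated replicate 3 lay -0.45 and -0.39 log2 (CPM + 1) units from the untreated means of GCN2 KO and DKO. A replicate block takes such a shared difference out of the residual spread. Each of the 4 groups holds every replicate number, so the block can hardly move the estimates themselves. The list median with it, -0.126 in edgeR, is therefore no check of the replicate difference. In the block with DESeq2, chosen after seeing the data, HSPA8 had a log2 change of -0.37 (adjusted p = 0.0274). The cause of the replicate difference was not tested. MT-TP, the mitochondrial proline tRNA gene, was read at 9224, 11771 and 10834 CPM in azaC-treated GCN2 KO cells, against 13922, 12962 and 15071 CPM in untreated ones. Its DKO values were 4574, 3723 and 4481 CPM with azaC and 5826, 4247 and 6255 CPM untreated, with a pooled log2 change of -0.38 ± 0.10 (SE). The libraries were made from polyA RNA and their strand setting is not given, so the MT-TP reads need not come from the tRNA itself. Which RNA they come from was not tested. The 13 mitochondrial mRNAs had a median log2 change of 0.0083.

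**Figure D3:**
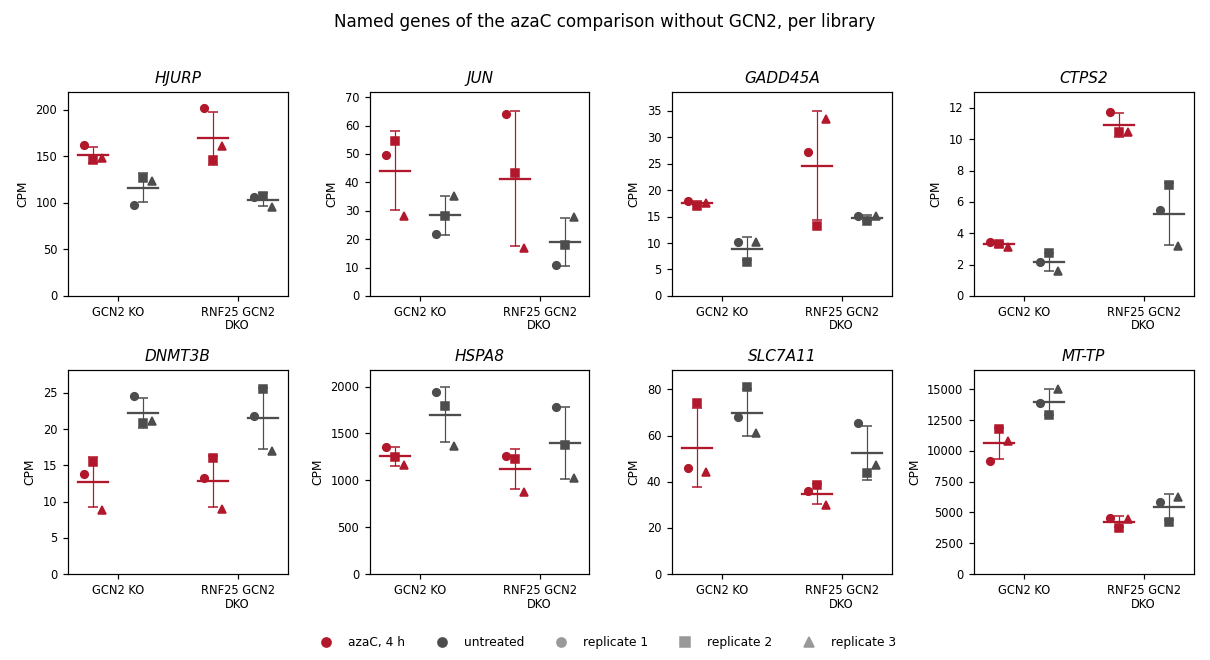
Levels in CPM (vertical axes, from 0) of 8 named genes in each library of GCN2 KO and DKO cells, azaC (red) left of untreated (grey). Symbols mark the replicate number, lines the mean and bars the SD over 3 libraries. HJURP and, at low counts, CTPS2 show every azaC library above and DNMT3B every azaC library below the untreated ones in both lines. JUN overlaps in both lines and GADD45A in DKO.

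Genes that handle or meet azaC formed lists of their own. Of 15 tested genes of nucleoside uptake and pyrimidine metabolism, 10 were positive and the median was 0.069. UCK2, the kinase that activates azaC, had a pooled log2 change of 0.028 (95% interval -0.31 to 0.37). CTPS2, a CTP synthase, was the only tested member of that list with every azaC library above in both lines. Its counts were low, at 2 to 16 in each library, so a few reads make this separation. It was read at 3.44, 3.30 and 3.15 CPM in azaC-treated GCN2 KO cells and at 2.17, 2.73 and 1.56 CPM in untreated ones. DKO cells gave 11.8, 10.5 and 10.4 CPM with azaC and 5.47, 7.09 and 3.16 CPM untreated, for a pooled change of 0.88 (unadjusted p = 0.037). Over 9 tested DNA and RNA methylation genes the median was -0.11. DNMT1, the main DNA methyltransferase trapped by incorporated azaC, had a change of -0.033 (95% interval -0.30 to 0.23). DNMT3B, a de novo methyltransferase on chromosome 20 (GRCh38, 32762385 to 32809356), was read at 13.8, 15.4 and 8.81 CPM in azaC-treated GCN2 KO cells and at 24.6, 20.9 and 21.1 CPM in untreated ones. In DKO cells DNMT3B was read at 13.2, 16.1 and 9.05 CPM with azaC and at 21.9, 25.5 and 17.0 CPM untreated, with no overlap in either line. Its pooled log2 change was -0.78 ± 0.24 (SE, unadjusted p = 0.0027). With GCN2 present the change of DNMT3B was -0.22, and the difference did not pass (unadjusted p = 0.10). Only 1 of 18 germline genes silenced by methylation had enough counts to test, DAZL, at -0.77.

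Among the other genes with the smallest p and a negative change, PREPL had a log2 change of -0.49 and PKP4, a plakophilin of cell junctions, one of -0.43. EYA4, a phosphatase and transcriptional coactivator, had one of -0.65. All 3 had every azaC library below in both lines, and 23.6% of the exon length of PREPL lies under a gene of the opposite strand. CAMSAP3, which binds microtubule minus ends, had one of -0.97, with -1.63 in GCN2 KO and -0.38 in DKO. NHLH2 (-1.46) and HLCS (-1.09), which encodes the enzyme that attaches biotin to carboxylases, rest on low levels, with 15.0 and 16.4 CPM in their highest libraries. PBX3 (-0.50), TMEM178B (-0.85) and CLCN3 (-0.44) were also among them.

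SLC7A11, the cystine transporter, was the ISR-linked transporter with the most negative change. It was read at 46.1, 74.3 and 44.0 CPM in azaC-treated GCN2 KO cells and at 67.9, 80.9 and 61.0 CPM in untreated ones. DKO cells gave 36.0, 38.4 and 29.9 CPM with azaC and 65.6, 43.9 and 47.4 CPM untreated, with every azaC library below. The pooled log2 change was -0.45 ± 0.17 (SE, unadjusted p = 0.011), and with GCN2 it was 1.18. SLC3A2, its heavy chain partner, had 0.31 without GCN2 and 0.91 with it. Over 14 amino acid transporters the median was 0.084 without GCN2 and 0.71 with it, and over 20 tRNA synthetases it was -0.022 and 0.16. The other eIF2 kinases had pooled changes of -0.058 for EIF2AK1 (HRI), -0.096 for EIF2AK2 (PKR) and 0.53 for EIF2AK3 (PERK), all with intervals that included 0.

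The remaining lists stayed near the median of all genes. Medians were -0.022 for 21 S phase genes, 0.022 for 18 DNA repair genes, 0.0017 for 23 ribosome quality control genes, 0.030 for 26 ribosome biogenesis genes, 0.034 for 12 autophagy genes and 0.018 for 18 cholesterol genes. The members of these lists with the smallest p were KRI1, a ribosome assembly factor, at 0.62, and MSMO1, a sterol oxidase, at 0.51. Neither passed the adjusted threshold (adjusted p = 0.997 for both, edgeR). Medians were -0.066 for 12 NRF2 targets, -0.00057 for 8 interferon genes and -0.030 for 14 snoRNA host genes. Cytosolic ribosomal protein genes were negative for 71 of 80, with a median of -0.077 and none at an unadjusted p under 0.05.

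**Figure D4:**
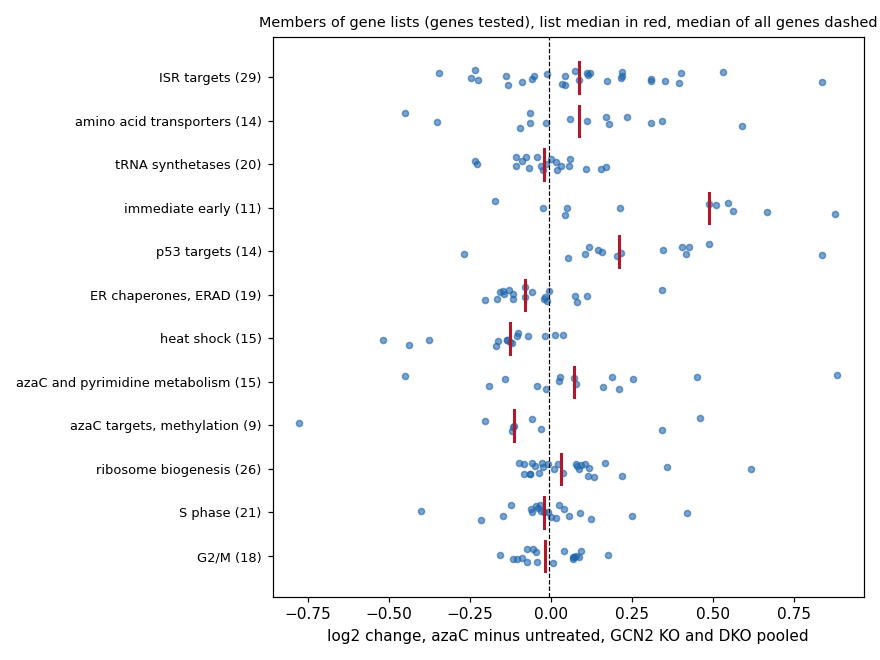
Pooled log2 change with azaC in GCN2 KO and DKO cells (horizontal axis) for the tested members of 12 gene lists, 1 point per gene. The number tested stands beside each list, red bars are list medians, and the dashed line is the median of all tested genes. Immediate early and p53 lists have medians of 0.49 and 0.21, and the ISR list one of 0.086.

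How far the lines shared their response was described across genes. Over 9939 genes the log2 changes of GCN2 KO and DKO had a Pearson correlation of 0.058 and a Spearman correlation of 0.060, and 5170 genes (52%) had the same sign. Genes are not independent replicates, and the lines share no library but do share a normalisation. The test of the difference between lines, DKO minus GCN2 KO, passed for 0 genes, with 252 (2.54%) reaching an unadjusted p under 0.05 in edgeR. DESeq2 called 0 as well, with 203. Those with the smallest p were ZIC5, a zinc finger transcription factor, at a log2 change of -1.25 in DKO and 1.74 in GCN2 KO, and SRRM1P3, a pseudogene, at 0.62 in DKO and -0.46 in GCN2 KO. LSM7, of the decapping-linked LSM complex, had -0.38 in DKO and 0.58 in GCN2 KO, and the Mediator subunit MED19 had 0.74 in DKO and -0.21 in GCN2 KO. SRRM1P3 may share reads with SRRM1.

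**Figure D5:**
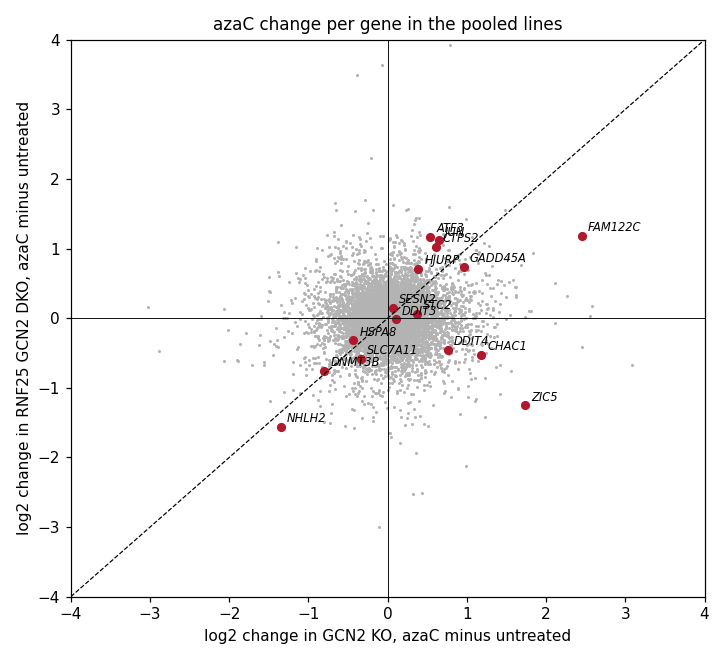
Log2 change with azaC in GCN2 KO cells (horizontal axis) against that in DKO cells (vertical axis), 1 grey point for each of the 9939 tested genes, with named genes in red and the dashed line marking equal change. The points form a round cloud, with a Pearson correlation of 0.058. JUN, GADD45A and HJURP lie in the upper right, DNMT3B and NHLH2 in the lower left, and DDIT4, CHAC1 and ZIC5 in the lower right.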

How the data were processed

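Gene counts were deposited by the authors as raw counts per gene. The 12 libraries held 1135498 to 2006564 counts. Per the submitters' processing notes, the tools were STAR 2.7.10b for alignment and HTSeq 0.9.1 for counting, with GRCh38 as the genome. Per the labels' protocols, extraction used the Maxwell RSC system, and polyA libraries were prepared using CORALL mRNA-Seq V2. Not given in the sources used here are the annotation release, the strand setting and whether molecular identifiers were used, so overlapping genes of opposite strands may share counts. Replicates are labelled only as biological replicates, so p-values measure the spread between these libraries. The table held 60676 genes and 45 library columns, with 0 left out, and entries without a symbol took 0.0286% of counts.

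Differences were tested with edgeR 4.0.16 under R 4.3.3: filterByExpr with a minimum count of 10, TMM scaling, and the quasi-likelihood F test, two-sided, with Benjamini-Hochberg adjustment over all tested genes and a threshold of 0.05. The pooled fit had the line as a block and 9 residual degrees of freedom, with a biological coefficient of variation of 19.2%. Single lines and their difference came from a fit with a mean per group on the same 12 libraries, and the difference without minus with GCN2 from 24 libraries in 8 groups. Intervals are at 95%. Levels are CPM on TMM-scaled library sizes over the 24 libraries, and averages of a list per library are of log2 (CPM + 1). Chi-square over degrees of freedom was at least 3 in the 12 replicate pairs, so all were counted as separate libraries. The code was tested on simulated data. Gene positions and exon overlaps came from GENCODE release 29 on GRCh38, and promoters from RefSeq.

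Genes were named by rule: the 12 smallest p in each direction of the pooled response, a fixed set of ISR and related genes, the 10 smallest p in each direction of the difference without minus with GCN2, the 5 in each direction of the difference between lines, and from each of 25 lists those passing and up to 4 with the smallest p. Of the genes so named, 1 is not reported here. The 14 genes that passed the difference without minus with GCN2 are all named, including those beyond the rule's 10, chosen after their values were seen. Members and lists were chosen with earlier results of these data known. Alternatives were DESeq2 size factors, no filter, DESeq2 1.42.0, limma-voom (limma 3.58.1), a replicate block, all 45 libraries, each line alone and leaving out each library. Others, chosen after seeing the data, were the block with all 45 libraries or with DESeq2, single line pairs and their difference, and leaving out both GCN2 KO libraries numbered 2.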

Additional observations from a re-analysis of the deposited data

Results flagged for a closer look

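The azaC response differed between lines without and with GCN2, by the test of the difference itself, for 14 genes, each lower without GCN2. The log2 differences, without minus with GCN2, were -2.11 for SESN2, -2.09 for STC2, -3.45 for DDIT4, -1.94 for PCK2, -1.43 for HERPUD1, -2.42 for DDIT3 and -3.03 for AC016831.5. They were -1.64 for SLC7A11, -4.61 for CHAC1, -1.08 for SLC38A2, -1.64 for LINC00662, -1.99 for CEBPB, -2.28 for ATF3 and -1.31 for TSC22D3. Adjusted p ran from 6.14e-08 (SESN2) to 0.047 (TSC22D3). AC016831.5 was not tested in the pooled lines without GCN2, where its counts were too low, and passed the filter through the larger set of libraries.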

How the results depend on the processing

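For the pooled azaC response the count of 0 genes held with DESeq2 size factors, no filter, DESeq2, limma-voom, all 45 libraries and each line alone, and in the 12 fits without 1 library (368 to 653 genes at an unadjusted p under 0.05). Deviations of same-numbered libraries correlated at 0.0544 to 0.278 over 18 pairs, over 0.1 in 14, and 12 of 12 libraries correlated best with their own number. Libraries of different groups and different numbers correlated at most at 0.0567, over 36 pairs. Same-numbered libraries therefore shared deviations. The labels do not say what a number stands for, and the main fits did not pair the samples by it. The replicate block called 0 genes for the pooled response (650 at an unadjusted p under 0.05), 0 for the difference between lines and 18 for the difference without minus with GCN2. In fits chosen after seeing the data, the block with all 45 libraries called 1 gene for the pooled response (HJURP, adjusted p = 0.0142) and the block with DESeq2 called 2 (HSPA8, 0.0274, and HJURP, 0.0327). Leaving out both GCN2 KO libraries numbered 2 called 0, with 462 at an unadjusted p under 0.05.

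For the difference between lines, no filter called 1 gene, PSMD4P1 (log2 difference 3.88, at most 48 counts in a library), and the fits without 1 library called 0. For the difference without minus with GCN2, no filter called 29 genes, DESeq2 17 and limma-voom 13, and the 24 fits without 1 library called 10 to 17, lowest without untreated GCN2 KO replicate 2. Of the 14 genes, 10 were called in each of those 24 fits and 0 changed sign. GCN2 KO against AAVS1 called 1, and DKO against RNF25 KO called 9. The causes were not tested.

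Of 39 named genes of the pooled response, 34 kept their sign in every alternative run. Many of the 39 were chosen for the smallest p in these same libraries, and such genes rarely change sign in refits of the same data. The 5 that changed sign were CHAC1, DDIT3, DDIT4, CEBPB and STC2, none of them chosen in that way. CHAC1 was -0.37 with limma-voom, -0.017 with the replicate block in DESeq2 and -0.69 without both libraries numbered 2, and ran from -0.82 to 0.89 without 1 library. DDIT3 was -0.067 with limma-voom and -0.024 in DKO alone, and ran from -0.19 to 0.22. DDIT4 was -0.46 in DKO alone and -0.23 without both libraries, and ran from -0.28 to 0.26. CEBPB was -0.15 in DKO alone and -0.011 without both, and ran from -0.13 to 0.20. STC2 was -0.026 without both. At 33 to 65 counts for a median gene, the depth limits the precision of low genes.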
